A study of Mus musculus with 6 samples.

Results

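Axon guidance ligands and receptors are the secreted and membrane-bound cues, and the receptors that read them, which steer growing axons. The genes described here are those whose symbol marks a semaphorin, plexin, neuropilin, ephrin, Eph receptor, Slit, Robo, netrin, Unc5 or Dcc gene. The symbol rule found 72 of 54309 gene identifiers in the table, of which 69 were protein-coding and 3 were antisense RNAs of the plexin gene Plxna4. RNA was sequenced from neuron-enriched cells of L4-6 dorsal root ganglia (DRG), which hold the cell bodies of sensory neurons. The mice were male C57bl/6 aged 8-10 weeks. Both sciatic nerves received an adeno-associated viral vector (AAV), which sensory neurons take up, and the dorsal columns were cut 4 weeks later. This injury severs the central branch of sensory axons in the spinal cord, and ganglia were taken 24 hours afterwards. The AAV-Leptin-GFP group carried leptin together with GFP, and the AAV-GFP group carried GFP alone, with 3 libraries in each. Both groups therefore had a vector, GFP and an injured spinal cord, and no uninjured or uninfected group is analysed here. The sources used here do not give the promoter of the vectors, or whether a library came from 1 animal or from several, so the spread between libraries may be partly technical.

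Guidance cues act on the growth cone, the moving tip of an axon. Secreted class 3 semaphorins are bound by neuropilins and signal through plexins of the A group, while membrane-bound semaphorins bind plexins directly, and both mostly repel or collapse the growth cone. Ephrins are held on the cell surface and activate Eph receptor tyrosine kinases, with signals that run both ways between touching cells. Slits repel axons through Robo receptors, and netrins attract through Dcc or repel through Unc5 receptors. In adult sensory neurons many of these receptors remain expressed, and several of their cues are known as barriers to regrowth after spinal cord injury.

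Values are in TPM, a length-corrected share of each library scaled to a sum of 1000000, which allows levels of different genes to be compared but keeps no read depth. They are listed below in the order of replicates 1, 2 and 3. Genes at 1 TPM or more numbered 15151 to 15285 in AAV-Leptin-GFP libraries and 14717 to 14851 in AAV-GFP libraries. Across genes, log2(TPM + 1) values had a Pearson correlation of 0.978 to 0.981 within AAV-Leptin-GFP, 0.982 to 0.984 within AAV-GFP and 0.974 to 0.982 between the groups. Lep, the delivered gene, was listed at 0.751, 0.547 and 3.56 TPM with AAV-Leptin-GFP and at 0 in every AAV-GFP library. The 13 neuron markers summed to 25252 to 25863 TPM with AAV-Leptin-GFP and 25724 to 27292 TPM with AAV-GFP. These sums overlapped, and 3 of the 13 genes had log2 fold changes above 0. The 8 satellite glia markers summed to 7378 to 8101 TPM with AAV-Leptin-GFP and 8225 to 9394 TPM with AAV-GFP. The 9 Schwann cell markers summed to 939.6 to 1024 TPM with AAV-Leptin-GFP and 1060.5 to 1107 TPM with AAV-GFP, and the 10 endothelial markers to 80.9 to 91.5 TPM with AAV-Leptin-GFP and 94.4 to 99.6 TPM with AAV-GFP. The sums of these last 3 lists did not overlap between the groups, but not all members went the way of the sum. The satellite glia sum was mostly Apoe (5937 to 6504 TPM with AAV-Leptin-GFP, 6655 to 7564 TPM with AAV-GFP), and 3 of its 8 genes, Glul, Sox10 and Cdh19, had log2 fold changes above 0. In the Schwann cell list 2 of 9 were above 0, and of these Egr2 rose (1.29, limma adjusted p = 0.0155). The endothelial sum was mostly Egfl7 (53.8 to 60.6 TPM with AAV-Leptin-GFP, 63.4 to 67.3 TPM with AAV-GFP), and 4 of the 8 tested genes were above 0. Macrophage (39.4 to 40.1 TPM with AAV-Leptin-GFP, 35.0 to 53.1 TPM with AAV-GFP), fibroblast (60.02 to 88.3 TPM with AAV-Leptin-GFP, 63.1 to 77.1 TPM with AAV-GFP) and vascular mural markers (57.1 to 75.8 TPM with AAV-Leptin-GFP, 66.0 to 92.2 TPM with AAV-GFP) overlapped. Erythroid markers summed to 241 to 1727 TPM with AAV-Leptin-GFP, highest in replicate 3, and to 171 to 257 TPM with AAV-GFP. At an unadjusted limma p under 0.05, 4 neuron (30.8%), 3 satellite glia (37.5%) and 3 Schwann cell markers (33.3%) were lower. Among all tested genes 8.19% were. In each of these lists 1 marker was higher at that p. Of the 6 erythroid markers, 3 were higher at that p (50%, against 11.3% of all tested genes). All 6 had log2 fold changes above 0. No marker of any list was at 0 in all libraries. The part of these shifts in the guidance gene values was not tested, and in such mixed samples fewer cells of a type and less RNA per cell cannot be told apart.

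Most guidance genes were detected in these neuron-enriched cells of sensory ganglia. Of the 72 genes, 28 averaged 10 TPM or more over the 6 libraries, 29 averaged between 1 and 10 TPM, and 15 averaged under 1 TPM. The 15 were the 3 antisense RNAs and 12 coding genes: Sema3a, Epha1, Epha2, Epha3, Epha8, Efna4, Slit3, Robo3, Robo4, Ntn1, Unc5d and Dcc. The highest mean was that of the Slit receptor gene Robo2 at 88.1 TPM. Next came the plexin gene Plxnc1 at 76.4 TPM and its ligand gene Sema7a at 62.8 TPM, with the transmembrane semaphorin gene Sema4f at 72.6 TPM between them. The secreted semaphorin gene Sema3b averaged 61.2 TPM, and Slit1, a ligand of Robo2, averaged 49.0 TPM. Within each group every Robo2 value lay above every Plxnc1 value, while the values of Plxnc1 and Sema4f overlapped. The netrin gene Ntn1 was low, at 0.553, 0.853 and 0.695 TPM in AAV-Leptin-GFP libraries and 1.44, 0.772 and 0.980 TPM in AAV-GFP libraries. Its attractive receptor gene Dcc was at 0.219, 0.402 and 0.312 TPM with AAV-Leptin-GFP and at 0.283, 0.221 and 0.359 TPM with AAV-GFP. The best known axon repellent of the class, Sema3a, ranged from 0.0841 to 0.165 TPM with AAV-Leptin-GFP and from 0.0483 to 0.502 TPM with AAV-GFP. Slit3 averaged 1.01 ± 0.418 TPM with AAV-Leptin-GFP and 0.692 ± 0.0306 TPM with AAV-GFP, and Epha2 0.753 ± 0.286 TPM with AAV-Leptin-GFP and 0.444 ± 0.153 TPM with AAV-GFP (SD, n = 3 each). Epha1, Epha3, Efna4, Robo4 and Unc5d stayed under 1 TPM in every library, with groups that overlapped. Of the antisense RNAs, Plxna4os1 was listed at 0, 0.0816 and 0.0466 TPM with AAV-Leptin-GFP and at 0 with AAV-GFP, and Plxna4os2 and Plxna4os3 were at 0 in all 6 libraries.

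**Figure D1:**
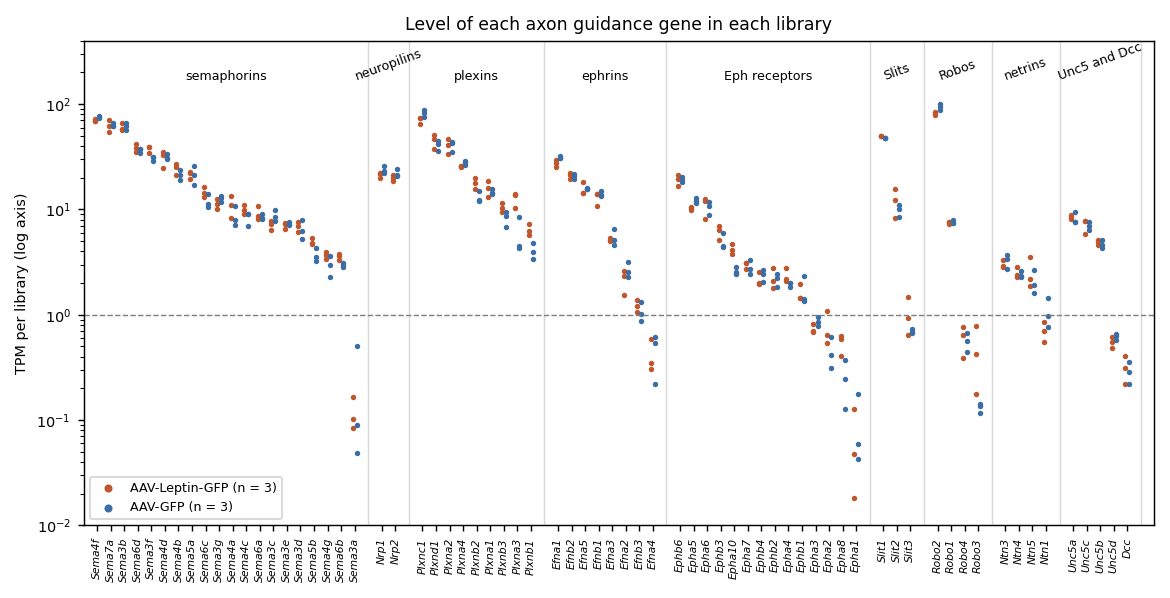
TPM of the 69 protein-coding axon guidance genes on a log axis, by family, with 1 point per library (AAV-Leptin-GFP left of AAV-GFP, n = 3 each). The dashed line marks the 1 TPM minimum of the gene test. Levels run from under 0.1 TPM to about 100 TPM, and the groups lie close together for most genes.

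No guidance gene passed the adjusted threshold for a difference between leptin and control vectors. The 57 genes that averaged 1 TPM or more were tested with limma on log2(TPM + 1), and p-values were adjusted over all 15108 tested genes. At an adjusted p under 0.05, 0 of the 57 were higher and 0 lower with AAV-Leptin-GFP, against 1.54% of all tested genes higher and 0.0662% lower. At an unadjusted p under 0.05, 6 guidance genes were higher (10.5%) and 5 lower (8.77%), against 11.3% and 8.19% of all tested genes. The 3 libraries of each group did not overlap for 9 guidance genes that were higher with AAV-Leptin-GFP (15.8%) and 8 that were lower (14.0%), against 13.3% and 11.9% of all tested genes. These shares lay near the background in every case. The median log2 fold change over the 57 genes was 0.04, with 33 above 0 and 24 below, and that over all tested genes was -0.00016, with 7546 above 0. Summed over the 72 genes, guidance transcripts took 1047, 1107 and 1013 TPM with AAV-Leptin-GFP and 1060.2, 1039.5 and 1054 TPM with AAV-GFP. The 35 ligands summed to 593 ± 27.3 TPM with AAV-Leptin-GFP and 582 ± 13.0 TPM with AAV-GFP, and the 34 receptors to 462 ± 20.5 TPM with AAV-Leptin-GFP and 468.6 ± 4.999 TPM with AAV-GFP (SD, n = 3 each).

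The number of genes called over the whole table changed when any 1 library was left out. It was 233 higher and 10 lower in all 6 libraries, and 409 and 11 without AAV-GFP replicate 1. The higher count was 3 when AAV-GFP replicate 2 was dropped and 4 when replicate 3 of that group was. It was 10, 18 and 15 when AAV-Leptin-GFP replicates 1, 2 and 3 were dropped in turn, with at most 1 lower in these 5 fits. Every fit with a library left out also had fewer libraries, and the part of this in the changed counts was not tested. Among guidance genes, 1 was called without AAV-GFP replicate 1 (Plxna3) and 0 without any of the other libraries. Of the 5 genes on the lower side at an unadjusted p under 0.05, 4 and 3 remained there when AAV-Leptin-GFP replicates 1 and 2 were left out in turn, and 2 remained when any of the other 4 libraries was left out. Counted over all guidance genes, the lower side then held 5, 3 and 2 genes as AAV-Leptin-GFP libraries 1, 2 and 3 were left out in turn, and 3, 3 and 2 for AAV-GFP libraries 1, 2 and 3.

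**Figure D2:**
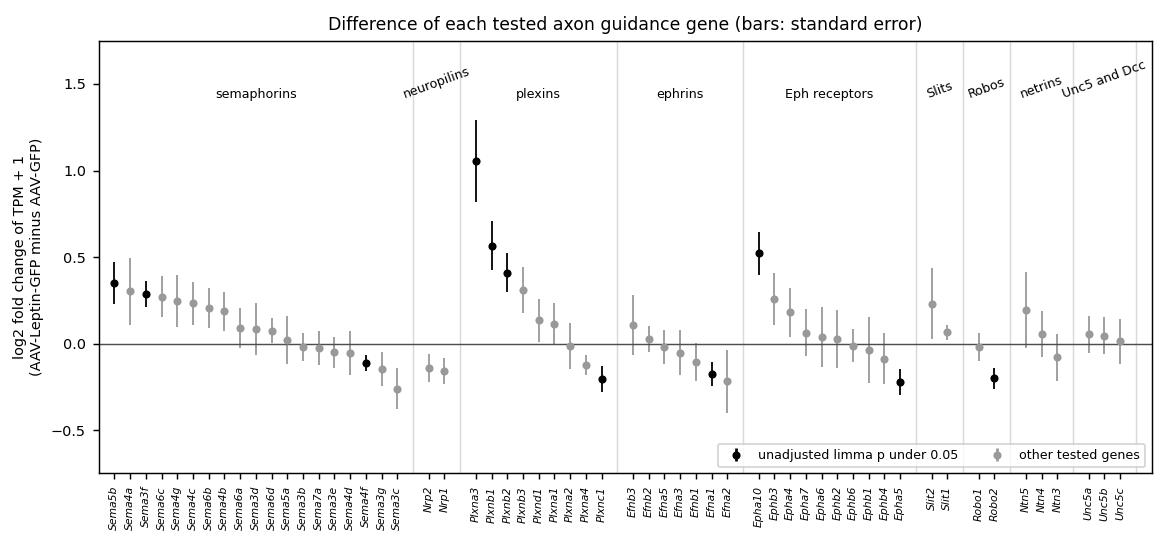
Log2 fold change of TPM + 1, AAV-Leptin-GFP minus AAV-GFP, for the 57 tested guidance genes by family, with the standard error from limma as bars. The 11 genes in black had an unadjusted p under 0.05. Plxna3 lies highest at 1.05, and the tested ephrins, neuropilins and Robos lie mostly at or below 0.

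In the semaphorin system the 3 highest fold changes over all transcripts were those of plexin genes, which encode receptors. With protein-coding transcripts only, the ligand gene Sema4g was highest at 0.53, above Plxna3 at 0.32. Plxna3 (ENSMUSG00000031398, chrX:74329066-74344689 on GRCm38, plus strand) encodes a plexin that pairs with neuropilin-2 to receive Sema3f. It stood at 13.7, 14.0 and 10.3 TPM in AAV-Leptin-GFP libraries, against 8.50, 4.33 and 4.48 TPM in AAV-GFP libraries. All AAV-Leptin-GFP libraries lay above all AAV-GFP libraries, and AAV-GFP replicate 1 was the AAV-GFP library nearest to them. The log2 fold change of 1.05 (SE 0.24) had a limma adjusted p of 0.0752. Without AAV-GFP replicate 1 it was 1.33, with a limma adjusted p of 0.0128, and over the 17 alternatives tried it ranged from 0.32 to 1.33 with adjusted p from 0.0128 to 0.256.

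Sema3f, the secreted ligand of that receptor complex (ENSMUSG00000034684, chr9:107681500-107710475, minus strand), stood at 39.0, 39.3 and 34.0 TPM with AAV-Leptin-GFP, against 31.4, 31.4 and 28.6 TPM with AAV-GFP. The groups did not overlap, with every AAV-Leptin-GFP library higher (log2 fold change 0.29, SE 0.08, limma adjusted p = 0.104). The neuropilins, which bind class 3 semaphorins, pointed the other way. Nrp1 had 21.8, 22.1 and 19.7 TPM with AAV-Leptin-GFP, against 25.7, 23.2 and 22.4 TPM with AAV-GFP, and its groups did not overlap (-0.16, SE 0.08, limma adjusted p = 0.318). Nrp2, the partner of Plxna3 in Sema3f binding, had 19.8, 21.3 and 18.7 TPM with AAV-Leptin-GFP, against 21.31, 20.99 and 24.11 TPM with AAV-GFP, and its groups overlapped (-0.14, SE 0.08, limma adjusted p = 0.394). Sema3c, a secreted class 3 ligand, lay lowest of the semaphorins. It stood at 7.83, 7.21 and 6.34 TPM with AAV-Leptin-GFP, against 8.43, 7.85 and 9.96 TPM with AAV-GFP, and AAV-Leptin-GFP replicate 1 lay just under AAV-GFP replicate 2 (-0.26, SE 0.12, limma adjusted p = 0.279). The remaining tested class 3 ligands, Sema3b, Sema3d, Sema3e and Sema3g, had log2 fold changes from -0.15 to 0.09. Among the other A-group plexins, which also receive class 6 semaphorins, Plxna4 was at -0.12 with groups that did not overlap, Plxna1 at 0.11 and Plxna2 at -0.01.

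The B-group plexins, receptors of membrane-bound class 4 and 5 semaphorins, were all above 0. Plxnb1, the receptor of Sema4d (ENSMUSG00000053646, chr9:109095389-109119917, plus strand), stood at 7.33, 6.19 and 5.72 TPM with AAV-Leptin-GFP, against 3.90, 3.36 and 4.78 TPM with AAV-GFP. All AAV-Leptin-GFP libraries were higher (log2 fold change 0.57, SE 0.14, limma adjusted p = 0.0951). Plxnb2, a receptor of Sema4c (ENSMUSG00000036606, chr15:89155549-89180788, minus strand), had 20.1, 17.7 and 15.7 TPM with AAV-Leptin-GFP, against 14.9, 12.4 and 12.2 TPM with AAV-GFP. The groups were again separate, by less than 1 TPM between AAV-Leptin-GFP replicate 3 and AAV-GFP replicate 1 (0.41, SE 0.11, limma adjusted p = 0.113). Plxnb3, a receptor of Sema5a, was at 0.31 (SE 0.13, limma adjusted p = 0.260) with groups that overlapped. Their ligand genes gave a log2 fold change of -0.05 for Sema4d, 0.23 for Sema4c and 0.02 for Sema5a. Sema5b, a transmembrane semaphorin with thrombospondin repeats, stood at 4.74, 5.32 and 4.85 TPM with AAV-Leptin-GFP, against 3.55, 4.27 and 3.26 TPM with AAV-GFP. Its AAV-Leptin-GFP libraries were all higher (0.35, SE 0.12, limma adjusted p = 0.177).

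Plxnc1 and Sema4f, the most abundant plexin and semaphorin genes here, lay below 0. Plxnc1, the receptor of the lipid-anchored Sema7a, had 74.1, 74.0 and 64.6 TPM with AAV-Leptin-GFP, against 87.1, 82.8 and 75.7 TPM with AAV-GFP. Each AAV-Leptin-GFP library was lower than each AAV-GFP library (log2 fold change -0.20, SE 0.08, limma adjusted p = 0.204). Sema7a itself was at 54.3, 62.0 and 71.1 TPM with AAV-Leptin-GFP and at 61.4, 61.9 and 66.4 TPM with AAV-GFP, and these overlapped (-0.03, SE 0.10, limma adjusted p = 0.921). Sema4f had 71.6, 68.8 and 68.7 TPM with AAV-Leptin-GFP, against 74.2, 77.02 and 75.04 TPM with AAV-GFP. Its groups did not overlap, though they lay close (-0.11, SE 0.04, limma adjusted p = 0.231). Plxnd1, the Sema3e receptor, was at 0.13 (SE 0.13), which turned to -0.10 with protein-coding transcripts only. The class 6 ligand genes Sema6a, Sema6b, Sema6c and Sema6d ranged from 0.08 to 0.27, with no overlap between the groups for Sema6b. On protein-coding transcripts alone, Sema6a was at 0.06, Sema6c at 0.01 and Sema6d at 0.02, while Sema6b kept 0.21. The class 4 genes Sema4a, Sema4b and Sema4g were at 0.30, 0.19 and 0.25, each with overlapping groups. With protein-coding transcripts only, Sema4a turned to -0.04, and Sema4g was at 0.53 (limma adjusted p = 0.145). The protein-coding transcripts of Sema4g had 2.94, 2.14 and 2.99 TPM with AAV-Leptin-GFP, against 1.19, 1.89 and 1.59 TPM with AAV-GFP, without overlap.

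Across the semaphorin family 12 of 19 tested genes were above 0 with a median log2 fold change of 0.09, which turned to -0.01 under quantile normalization. The median over all tested genes also moved, from -0.00016 in the main analysis to -0.038 under quantile normalization. Of the 9 plexins 6 were above 0, with a median of 0.13 (0.12 under quantile normalization). Both neuropilins were below 0 in the main analysis, under quantile normalization and with protein-coding transcripts only. The family sums overlapped for plexins, at 248, 259 and 229 TPM with AAV-Leptin-GFP and 246, 237 and 229 TPM with AAV-GFP. The neuropilins summed to 41.6, 43.4 and 38.4 TPM with AAV-Leptin-GFP, each lower than the 47.0, 44.2 and 46.5 TPM with AAV-GFP.

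**Figure D3:**
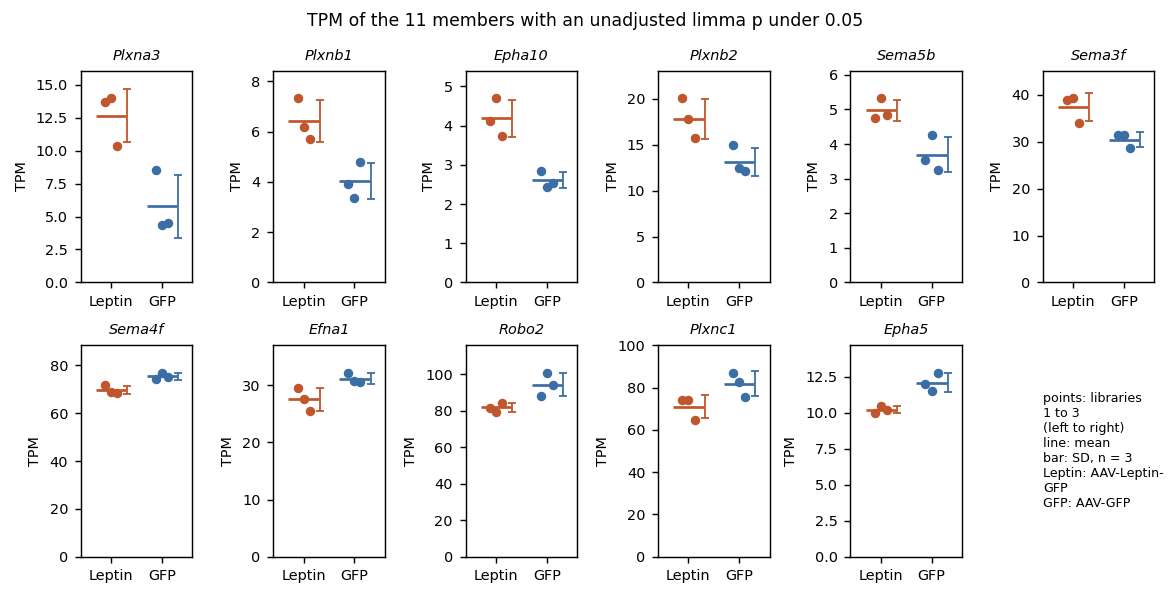
TPM per library of the 11 guidance genes with an unadjusted limma p under 0.05, AAV-Leptin-GFP left of AAV-GFP, with the mean as a line and the SD as a bar (n = 3). The top row holds the 6 genes that were higher with AAV-Leptin-GFP and the bottom row the 5 that were lower, and in each panel the groups do not overlap.

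Eph receptors and their ligands gave 1 gene on each side of 0 at an unadjusted p under 0.05 among the receptors, and 1 lower ligand. Epha10 (ENSMUSG00000028876, chr4:124880899-124917800, plus strand) encodes an Eph receptor that lacks kinase activity. It stood at 4.11, 4.70 and 3.74 TPM with AAV-Leptin-GFP, against 2.83, 2.43 and 2.55 TPM with AAV-GFP. All 3 AAV-Leptin-GFP libraries lay above the AAV-GFP libraries (log2 fold change 0.52, SE 0.13, limma adjusted p = 0.0881). Epha5, a receptor of A-type ephrins known from topographic mapping of axons (ENSMUSG00000029245, chr5:84054761-84417382, minus strand), had 9.96, 10.5 and 10.2 TPM with AAV-Leptin-GFP, against 11.99, 11.51 and 12.8 TPM with AAV-GFP. Its AAV-Leptin-GFP libraries were all lower (-0.22, SE 0.08, limma adjusted p = 0.175). Ephb6, which also lacks kinase activity, was the most abundant Eph gene, at 19.3, 21.3 and 16.8 TPM with AAV-Leptin-GFP and 18.2, 19.0 and 20.5 TPM with AAV-GFP. Its groups overlapped, and its log2 fold change of -0.01 (SE 0.10) turned to 0.02 when mitochondrially encoded genes were removed. The other 7 tested Eph receptors ranged from -0.09 for Ephb4, a receptor of B-type ephrins, to 0.26 for Ephb3. Of these, Epha4, a receptor of both ephrin types, had groups that did not overlap, at 2.35 ± 0.367 TPM with AAV-Leptin-GFP and 1.95 ± 0.0976 TPM with AAV-GFP (0.18, SE 0.14, limma adjusted p = 0.537). Over the 10 tested Eph receptors 6 were above 0 with a median of 0.03. It was -0.07 under quantile normalization, where that over all tested genes was -0.038. With protein-coding transcripts only, 9 Eph receptors were tested and their median was -0.01. Epha4 was not among these 9. Its protein-coding transcripts had 0.312, 2.77 and 2.17 TPM with AAV-Leptin-GFP, against 0, 0 and 0.196 TPM with AAV-GFP.

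Among the ephrins, Efna1, a lipid-anchored A-type ligand (ENSMUSG00000027954, chr3:89271733-89281142, minus strand), was the most abundant. It stood at 29.6, 27.5 and 25.5 TPM with AAV-Leptin-GFP, against 32.2, 30.7 and 30.6 TPM with AAV-GFP. All AAV-Leptin-GFP libraries were lower (log2 fold change -0.17, SE 0.07, limma adjusted p = 0.228). Efna2 had the lowest fold change, with 2.60, 1.56 and 2.35 TPM in AAV-Leptin-GFP libraries and 3.18, 2.55 and 2.28 TPM in AAV-GFP libraries. These overlapped (-0.22, SE 0.18, limma adjusted p = 0.559). Efnb3, a transmembrane B-type ligand, had the highest, at 1.40, 1.06 and 1.22 TPM with AAV-Leptin-GFP and 1.03, 0.863 and 1.32 TPM with AAV-GFP, also overlapping. Its value of 0.11 (SE 0.17) turned to -0.02 under quantile normalization. Efna3, Efna5, Efnb1 and Efnb2 ranged from -0.11 to 0.03. Of the 7 tested ephrins 5 were below 0, with a median of -0.05 (-0.18 under quantile normalization, against -0.038 over all tested genes). Epha8, under the minimum of the test, was listed at 0.584, 0.630 and 0.404 TPM with AAV-Leptin-GFP and at 0.368, 0.248 and 0.128 TPM with AAV-GFP, without overlap.

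In the Slit and Robo system the most abundant receptor gene, Robo2, was lower in every AAV-Leptin-GFP library. The most abundant ligand gene, Slit1, was slightly higher, though neither gene passed the adjusted threshold. Robo2 (ENSMUSG00000052516, chr16:73891839-74411825, minus strand) stood at 81.6, 79.6 and 84.5 TPM with AAV-Leptin-GFP, against 88.2, 101 and 93.9 TPM with AAV-GFP. The groups did not overlap (log2 fold change -0.20, SE 0.06, limma adjusted p = 0.133), and adjusted p ranged from 0.0966 to 0.329 over the alternatives. With protein-coding transcripts only, Robo2 was at -0.13 with groups that overlapped. Slit1 had 50.01, 50.33 and 50.19 TPM with AAV-Leptin-GFP, against 47.94, 47.76 and 48.02 TPM with AAV-GFP. Its libraries agreed within 1 TPM in each group and the groups did not overlap, for a difference of 0.07 on the log2 scale (SE 0.04, limma adjusted p = 0.472). Slit2, a second Robo ligand, was at 8.35, 15.6 and 12.2 TPM with AAV-Leptin-GFP and at 8.44, 11.1 and 10.1 TPM with AAV-GFP, with groups that overlapped (0.23, SE 0.21, limma adjusted p = 0.587). Robo1 was at -0.02, with 7.51 ± 0.179 TPM under AAV-Leptin-GFP and 7.63 ± 0.279 TPM under AAV-GFP (SD, n = 3 each). Robo3, under the minimum of the test, was listed at 0.175, 0.428 and 0.790 TPM with AAV-Leptin-GFP and at 0.137, 0.118 and 0.141 TPM with AAV-GFP. Its protein-coding transcripts alone averaged 0.0973 TPM with AAV-Leptin-GFP and 0.105 TPM with AAV-GFP.

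No netrin or Unc5 gene had an unadjusted p under 0.05, and every tested one had groups that overlapped. Ntn3, the most abundant netrin gene here, stood at 3.31, 2.86 and 2.93 TPM with AAV-Leptin-GFP and at 3.68, 2.73 and 3.41 TPM with AAV-GFP, overlapping (log2 fold change -0.08, SE 0.14, limma adjusted p = 0.802). Ntn5 had 2.19, 3.54 and 1.86 TPM with AAV-Leptin-GFP and 2.65, 1.596 and 1.926 TPM with AAV-GFP. AAV-Leptin-GFP replicate 2 stood above the rest, and without it the log2 fold change of 0.19 (SE 0.22) became -0.0026. Unc5a, a repulsive netrin receptor, had 8.18, 8.78 and 8.53 TPM with AAV-Leptin-GFP and 9.46, 7.55 and 7.57 TPM with AAV-GFP, overlapping. Its value of 0.05 (SE 0.11, limma adjusted p = 0.830) turned to -0.05 under quantile normalization. Ntn4 was at 0.05, Unc5b at 0.05 and Unc5c at 0.01.

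The libraries differed in which transcripts of these genes were listed. A retained-intron transcript is an annotated RNA that keeps intron sequence beside its exons and does not encode the full protein. Such transcripts held 5.47%, 4.66% and 4.03% of guidance gene TPM with AAV-Leptin-GFP, against 2.47%, 1.71% and 1.58% with AAV-GFP. The shares did not overlap, and the means were 4.72% ± 0.725 with AAV-Leptin-GFP and 1.92% ± 0.484 with AAV-GFP (SD, n = 3 each). Over all genes the retained-intron share was 3.601%, 3.747% and 3.24% with AAV-Leptin-GFP and 2.50%, 2.10% and 2.27% with AAV-GFP, also without overlap. The retained-intron share of single genes was compared where this class averaged at least 0.1 TPM, which held for 30 tested guidance genes. It was higher without overlap in 11 of the 30 (36.7%), against 48.1% of 6343 genes, and lower in 0, against 0.851%. The 11 genes were Plxna3, Plxnb2, Plxnb3, Plxnc1, Plxnd1, Robo2, Sema3f, Sema4b, Sema4c, Sema6c and Sema6d. In Sema4c these transcripts were 10.2%, 12.5% and 8.47% of the gene's TPM with AAV-Leptin-GFP and were listed at 0 with AAV-GFP, and in Plxnd1 they were 22.4%, 16.3% and 17.1% with AAV-Leptin-GFP, against 4.77%, 6.70% and 0% with AAV-GFP.

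Of the 6 genes with an unadjusted p under 0.05 on the higher side, Plxna3, Plxnb1, Plxnb2 and Sema3f had most of their difference in mean TPM on transcripts other than the protein-coding ones, as did Sema5b. In Plxna3 the retained-intron transcripts summed to 6.67, 6.62 and 5.51 TPM with AAV-Leptin-GFP, against 3.11, 0.264 and 0.769 TPM with AAV-GFP. Its protein-coding transcript had 5.35, 6.29 and 4.26 TPM with AAV-Leptin-GFP, against 4.29, 4.06 and 3.71 TPM with AAV-GFP. AAV-Leptin-GFP replicate 3 lay just under AAV-GFP replicate 1, so the groups overlapped. Retained-intron transcripts of Plxnb1 had 2.87, 2.09 and 0.479 TPM with AAV-Leptin-GFP and 0.377, 0 and 0.751 TPM with AAV-GFP, which overlapped. Protein-coding transcripts of Plxnb1 had 4.45, 4.10 and 5.24 TPM with AAV-Leptin-GFP and 3.53, 3.36 and 4.03 TPM with AAV-GFP, which did not. Retained-intron transcripts of Plxnb2 had 3.38, 2.06 and 1.03 TPM with AAV-Leptin-GFP and 0.368, 0 and 0 TPM with AAV-GFP. Those of Sema3f had 3.77, 2.76 and 1.63 TPM with AAV-Leptin-GFP and 0.227, 0 and 0.624 TPM with AAV-GFP. For Plxnb2 and Sema3f the groups did not overlap, and in all 3 genes AAV-Leptin-GFP replicate 3 was the lowest of its group. Another part of the Sema3f difference lay on a transcript annotated as a target of nonsense-mediated RNA decay. That transcript had 9.23, 9.64 and 8.33 TPM with AAV-Leptin-GFP, against 5.68, 6.18 and 5.62 TPM with AAV-GFP, without overlap. With protein-coding transcripts only, the log2 fold change was 0.32 for Plxna3 (limma adjusted p = 0.256), 0.27 for Plxnb1 (0.271), 0.15 for Plxnb2 (0.427), 0.10 for Sema3f (0.469) and 0.12 for Sema5b (0.651). Epha10, which has no retained-intron transcript in the annotation, kept 0.41 (0.138). The lower genes were at -0.24 for Epha5, -0.21 for Plxnc1, -0.17 for Efna1, -0.13 for Robo2 and -0.09 for Sema4f in that analysis, against -0.22, -0.20, -0.17, -0.20 and -0.11 over all transcripts. There, 3 guidance genes were higher at an unadjusted p under 0.05 (Epha10, Plxna3 and Sema4g), against 6 over all transcripts. Of these 3, 2 were among those 6. On the lower side there were 4 (Efna1, Epha5, Plxnc1 and Sema3c), and 3 of them were among the 5 over all transcripts. Robo2 and Sema4f dropped out. Protein-coding transcripts of Robo2 overlapped, at 71.8, 69.7 and 75.7 TPM with AAV-Leptin-GFP and 75.03, 84.8 and 78.3 TPM with AAV-GFP. A Robo2 transcript outside that class had 9.10, 9.08 and 8.08 TPM with AAV-Leptin-GFP, against 12.8, 15.6 and 15.1 TPM with AAV-GFP, without overlap.

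**Figure D4:**
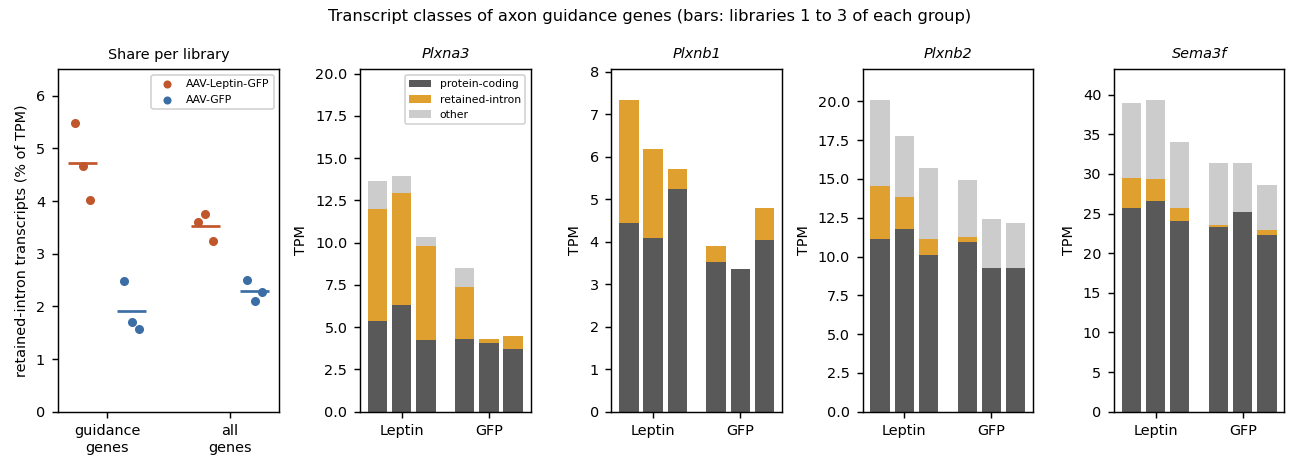
Left, the share of TPM on retained-intron transcripts in each library, for guidance genes and for all genes, with the mean as a line. Right, TPM of protein-coding, retained-intron and other transcripts of Plxna3, Plxnb1, Plxnb2 and Sema3f in libraries 1 to 3 of AAV-Leptin-GFP and then of AAV-GFP. The retained-intron parts are larger in AAV-Leptin-GFP libraries than in AAV-GFP libraries except for AAV-Leptin-GFP replicate 3 of Plxnb1, and the protein-coding parts differ less.

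The junctions below show what distinguishes these transcripts from the spliced messenger RNA, because a read across one of them holds exon and intron sequence side by side. Each is the transcript with the highest mean among the gene's retained-intron transcripts, read from GENCODE M21 on GRCm38, with 30 bases of coding exon in lower case and 60 bases of retained intron in capitals. The Plxna3 junction lies at chrX:74341719-74341808 on the plus strand, and its transcript of 984 nt has 172 bases in introns of the coding transcript. It was listed at 2.22, 2.06 and 1.71 TPM with AAV-Leptin-GFP, against 1.421, 0.219 and 0.634 TPM with AAV-GFP. The Plxnb2 junction lies at chr15:89165187-89165276 on the minus strand (605 nt, 356 intronic). The Sema3f junction lies at chr9:107689750-107689839 on the minus strand (581 nt, 138 intronic), and the Plxnb1 junction at chr9:109105531-109105620 on the plus strand (651 nt, 90 intronic). In these last 2 the intron comes first. The Sema3f transcript had 3.43, 1.497 and 1.39 TPM with AAV-Leptin-GFP, against 0.227, 0 and 0.624 TPM with AAV-GFP.
Plxna3: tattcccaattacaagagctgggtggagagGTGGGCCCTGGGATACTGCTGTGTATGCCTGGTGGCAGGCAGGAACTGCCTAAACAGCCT
Plxnb2: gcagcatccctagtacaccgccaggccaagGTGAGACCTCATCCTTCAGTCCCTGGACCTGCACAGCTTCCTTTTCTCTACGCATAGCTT
Sema3f: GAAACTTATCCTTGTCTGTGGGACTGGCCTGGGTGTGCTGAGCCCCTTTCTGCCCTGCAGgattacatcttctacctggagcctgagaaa
Plxnb1: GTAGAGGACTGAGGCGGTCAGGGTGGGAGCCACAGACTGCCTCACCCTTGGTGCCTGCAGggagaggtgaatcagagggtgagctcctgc
The introns of Plxna3 and Plxnb2 begin with GT after the exon and those of Sema3f and Plxnb1 end with AG before it, the letters of canonical splice sites.

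Promoter sequence was described for the 5 genes with the smallest p that are in the RefSeq promoter table (GRCm38.p6), with windows from 250 bases before to 50 bases after each start. Leptin signals through STAT transcription factors, and nerve injury induces AP-1 factors, so the STAT motif TTCNNNGAA and the AP-1 motif TGANTCA were searched on both strands. Neither motif occurred in the windows of Plxna3, Epha10, Plxnb1, Plxnb2 or Robo2. Of 75 windows of 59 guidance genes, 3 held the STAT motif (4%; Efna3, Epha3 and Sema3e), against 8.30% of 32851 windows in the table. The AP-1 motif was in 3 windows (4%; Sema4c, Sema4d and Sema6b), against 7.81%. No match says only that these letters are not in a window. The Plxna3 window, shown because this gene had the smallest p, lies at chrX:74328816-74329115 on the plus strand.
Plxna3 promoter: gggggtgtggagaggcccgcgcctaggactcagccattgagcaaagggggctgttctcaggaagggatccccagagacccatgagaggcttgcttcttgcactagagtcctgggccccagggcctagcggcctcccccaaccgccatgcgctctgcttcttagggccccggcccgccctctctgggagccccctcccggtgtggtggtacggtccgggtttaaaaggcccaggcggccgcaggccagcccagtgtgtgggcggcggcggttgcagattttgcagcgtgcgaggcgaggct

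Other genes of these pathways were taken from lists of 113 genes, mostly cytoplasmic effectors and co-receptors with some further ligands and modifying enzymes such as Draxin and Adam10, of which 111 were tested. Of these 1 rose with leptin (0.901%, against 1.54% of all tested genes) and 0 fell (against 0.0662%). At an unadjusted p under 0.05, 13 were higher (11.7%, against 11.3%) and 6 lower (5.41%, against 8.19%), shares close to or under the background. The median log2 fold change over the lists was 0.03 with 63 above 0. The gene that rose was Ssh3, which encodes a slingshot phosphatase that acts on the actin-severing protein cofilin (ENSMUSG00000034616, chr19:4261668-4269180 on GRCm38). It stood at 29.1, 28.1 and 23.9 TPM with AAV-Leptin-GFP, against 15.7, 8.54 and 10.2 TPM with AAV-GFP. Every AAV-Leptin-GFP library was higher, and AAV-GFP replicate 1 was the highest of its group (log2 fold change 1.20, SE 0.20, limma adjusted p = 0.0381). Retained-intron transcripts of Ssh3 had 14.8, 13.9 and 11.2 TPM with AAV-Leptin-GFP, against 5.33, 1.37 and 3.05 TPM with AAV-GFP. With protein-coding transcripts only, Ssh3 was at 0.66 (limma adjusted p = 0.0540). Its call was lost without any 1 library other than AAV-GFP replicate 1, with limma adjusted p from 0.0955 to 0.183. Without AAV-GFP replicate 1 it was 1.43 (limma adjusted p = 0.00649), and the semaphorin effector genes Mical1 (0.61, limma adjusted p = 0.0339) and Dpysl4 (0.47, limma adjusted p = 0.0455), named here after their values were seen, were also called. Over all 6 libraries with protein-coding transcripts only, Mical1 was at 0.03 (limma adjusted p = 0.903) and Dpysl4 at -0.17 (limma adjusted p = 0.294). Retained-intron transcripts of Mical1 had 22.5, 22.5 and 19.7 TPM with AAV-Leptin-GFP, against 9.97, 4.23 and 2.66 TPM with AAV-GFP, and those of Dpysl4 had 8.19, 7.63 and 6.88 TPM with AAV-Leptin-GFP, against 3.89, 1.62 and 0.924 TPM with AAV-GFP, both without overlap. By list, the 26 tested semaphorin effectors had a median of 0.04, the 19 Eph effectors 0.05, the 19 Slit and Robo effectors 0.04, the 24 netrin effectors 0.06 and the 23 shared cytoskeletal regulators -0.01.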

How the data were processed

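The authors deposited TPM per Ensembl transcript for the 6 libraries. The submitters' processing notes name Salmon 1.6.0, Trim Galore 0.6.6, DESeq2 1.34.0 and FastQC 0.11.9 without roles, and the builds GRCm38 and mm10; per the labels' protocols, the libraries were stranded and made from polyadenylated RNA. Depth is unknown, so no counting intervals are given. TPM were summed by gene identifier (140789 transcripts, 54309 genes). Genes averaging 1 TPM or more were fitted in limma 3.58.1 (R 4.3.3) as log2(TPM + 1), two-sided, with a mean-variance trend and Benjamini-Hochberg adjustment; the pseudocount understates fold changes of low genes. Transcript classes and coordinates came from GENCODE M21 (97.4% of transcript identifiers found; 37 with the same version, so the authors' release differs). Gene models of other genes overlap 44 of the 72 genes. The members, gene lists and tests were chosen with earlier results of these data known. Values in every library are given for genes at an unadjusted p under 0.05 without overlap, the most abundant gene of each family, and the extreme fold changes in each family. Alternatives changed the pseudocount, filter, scaling, transcripts, variance model, replicate block and libraries.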

Additional observations from a re-analysis of the deposited data

How the results depend on the processing

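No guidance gene was called higher or lower under 16 of 17 alternatives, and Plxna3 was the 1 exception, called higher without AAV-GFP replicate 1, so that leaving out libraries gave 0 to 1 calls. The 11 genes at an unadjusted p under 0.05 kept their sign in every alternative that tested them, which was 16 of 17 for Epha10 and Sema5b. Over all guidance genes, the count on the higher side at that p was 3 with protein-coding transcripts only. On the lower side it was 8 under quantile normalization, 2 with mitochondrially encoded genes removed, 3 without the mean-variance trend, and 2 to 5 with a library left out. The median over the tested guidance genes was -0.035 under quantile normalization, where that over all tested genes was -0.038. Over all tested genes it was 0.032 with mitochondrially encoded genes removed and -0.035 with protein-coding transcripts only. Of the 57 genes, 12 changed sign under quantile normalization, 6 with mitochondrially encoded genes removed, 5 with protein-coding transcripts only and 1 to 11 with a library left out. Among the genes given in every library by rule these were Ephb6 (0.021 with mitochondrially encoded genes removed, -0.087 to 0.074 with a library left out), Unc5a (-0.048) and Efnb3 (-0.019) under quantile normalization, and Ntn5 (-0.0026 to 0.331 with a library left out).

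The effector count was 0 with no filter, with protein-coding transcripts only, without the trend and with the replicate block, and 0 to 3 with a library left out. Over all genes the higher count was 4 with no filter, 53 with protein-coding transcripts only, 35 without the trend, 74 with the replicate block and 3 to 409 with a library left out. The lower count was 0 with no filter, 27 at a mean of at least 5 TPM, 3 with mitochondrially encoded genes removed, 4 with protein-coding transcripts only, 0 without the trend, 23 with robust variance moderation, 0 with the replicate block and 0 to 11 with a library left out. The cause of these changes was not tested.

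Deviations from the group means correlated at 0.034, -0.070 and -0.024 between same-numbered libraries, and at -0.082 to 0.112 between different-numbered ones. These values show no pairing by replicate number, but with 3 libraries per group they cannot exclude it. With the replicate number as a block, 0 guidance genes were called, and 7 were higher and 4 lower at an unadjusted p under 0.05. Depth is unknown, so how far it limits genes near 1 TPM could not be measured.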
